A study of Mus musculus with 3 samples.

Results

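Calponin 1 (Cnn1) and synaptopodin 2 (Synpo2) are parts of the contractile machinery of smooth muscle, and their transcripts were followed here in the suprarenal aorta together with 8 further contractile genes, Acta2, Myh11, Tagln, Smtn, Lmod1, Actg2, Des, and Myocd. The members were chosen by gene symbol, as the entries of 3 lists of gene expression that carry 1 of these 10 symbols. Of the 10 genes, 7 were listed in at least 1 comparison, and Smtn, Actg2, and Des were listed in none, among 1238 distinct entries in the 3 lists. The 3 libraries came from male apoE null mice on the C57BL/6 strain, which lack apolipoprotein E and were 12 weeks old when a pump was implanted. The AngII AAA cohort received angiotensin II (AngII), a peptide that raises blood pressure and contracts arteries, and was harvested no later than 24 h after a dissecting abdominal aortic aneurysm (AAA) was diagnosed. The AngII No AAA cohort received AngII, showed no aneurysm, and was harvested on day 10. The Saline cohort received saline and was also harvested on day 10. The AngII AAA tissue included the aneurysm itself, whereas the others were suprarenal aorta alone. The AngII AAA animals were also harvested earlier, after a shorter infusion than the animals of the other cohorts. Aneurysm therefore cannot be told apart from time of harvest and length of infusion in the comparisons with AngII AAA. In AngII AAA vs. Saline, the infused substance differed as well, so aneurysm cannot be told apart from AngII there. The part of each in the differences below was not tested. Each cohort was 1 library made from pooled RNA of several animals, so no spread between animals could be measured and no difference below carries a test.

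Smooth muscle of the aortic media shortens when myosin pulls on actin filaments that are anchored at dense bodies in the cell and at dense plaques on the membrane. Calcium entering the cytoplasm turns on the kinase that phosphorylates the myosin light chain, and a phosphatase turns it off. Most of the genes for this machinery share control by serum response factor, which binds a DNA element called the CArG box, and by its muscle partner myocardin, the product of Myocd. Loss of these transcripts from smooth muscle cells is known as a shift from a contractile to a synthetic state and accompanies many diseases of the aortic wall.

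The DNA just before the start of these genes is shown first, because the members are known as targets of serum response factor. RefSeq windows (mouse build GRCm38.p6) of the 250 bases before the annotated start were matched by symbol for 6 of the 10 genes, Cnn1, Synpo2, Acta2, Lmod1, Smtn, and Des, and not for Myh11, Tagln, Actg2, and Myocd. A CArG box was searched as C, C, then 6 letters of A or T, then G, G, a pattern that reads the same on both strands. None of the 6 windows held an exact CArG box, which 1.47% of all 32851 windows held. With at most 1 letter off, 2 CArG-like elements were found for Acta2 and 2 for Lmod1, and none for the other 4 genes. At least 1 such element was present in 18.6% of all windows and 2 or more in 2.96%. The 4 elements are in capitals below, and each stretch is read 5′ to 3′ on the strand of its gene.
Acta2, chr19:34255440-34255465, minus strand, from 92 to 67 bases before the start: gctgaggtCCCTATATGGttgtgtta
Acta2, chr19:34255390-34255415, minus strand, from 42 to 17 bases before the start: tctttgctCCTTGTTTGGgaagcgag
Lmod1, chr1:135324613-135324712, plus strand, from 200 to 101 bases before the start: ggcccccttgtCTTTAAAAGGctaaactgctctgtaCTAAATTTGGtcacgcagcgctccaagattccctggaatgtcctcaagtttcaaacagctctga
The Acta2 elements began 84 and 34 bases before the start, and the Lmod1 elements 189 and 164 bases before it. GENCODE M21 annotated a longer first exon for Acta2 that covered both of its elements, whereas both Lmod1 elements lay outside exons.

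The windows of the 2 genes that head the list held no CArG-like element, and are shown because their transcripts are described most fully below. The Synpo2 window held 2 GC boxes (GGGCGG, searched on both strands), marked in capitals, at 48 and 28 bases before the start. A GC box was present in 32.7% of all windows and in 4 of the 6 here, those of Synpo2, Lmod1, Smtn, and Des. The Cnn1 window held none of the motifs searched, which also included TATAAA (12.4% of all windows) and CATTCC (12.6%), both on either strand. TATAAA was found for Synpo2 alone, and CATTCC for Acta2, Lmod1, and Smtn.
Synpo2, chr3:123236150-123236249, minus strand, from 100 to 1 bases before the start: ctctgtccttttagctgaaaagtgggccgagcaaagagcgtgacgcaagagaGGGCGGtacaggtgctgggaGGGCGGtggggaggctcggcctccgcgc
Cnn1, chr9:22099116-22099215, plus strand, from 137 to 38 bases before the start: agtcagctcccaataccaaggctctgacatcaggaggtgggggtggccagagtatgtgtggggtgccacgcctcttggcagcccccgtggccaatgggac
A match of letters is a description of the sequence only, and no binding was measured.

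Levels below are FPKM, reads per kilobase of transcript scaled to the reads of the library, so they can be compared between genes of a library. The authors normalised each comparison separately, so values of the same library differ between lists. FPKM is a share of each library, so a difference between libraries also depends on the other transcripts in them. A gene entered a list only where the authors' unadjusted p-value for that comparison was under 0.05. A gene that is not listed may therefore have differed by less, or have been too variable or too low, and its level is not known here. A fold change is the ratio of the 2 FPKM values of an entry with no pseudocount, given as log2 of the first-named cohort over the second. Every fall listed in the 2 AngII AAA comparisons was over 2-fold, so the lists hold no small changes.

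All 7 listed members were over 2-fold lower in AngII AAA than in AngII No AAA, and none was higher. Among all 600 entries of that comparison, 126 (21%) were over 2-fold lower in AngII AAA and the other 474 (79%) over 2-fold higher. The median log2 fold change was -1.74 for the 7 members, beside 1.63 for all entries with a value in both libraries and -1.70 for the lower ones among these. The members were thus among the minority of entries that were lower, and in the middle of that minority by size. Their log2 fold changes spanned 0.79, from -2.26 to -1.47, against -3.98 for the largest fall among entries above 0 in both libraries. Summed over the 7 genes, FPKM was 2525 in AngII No AAA and 752 in AngII AAA, a 3.36-fold difference.

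**Figure D1:**
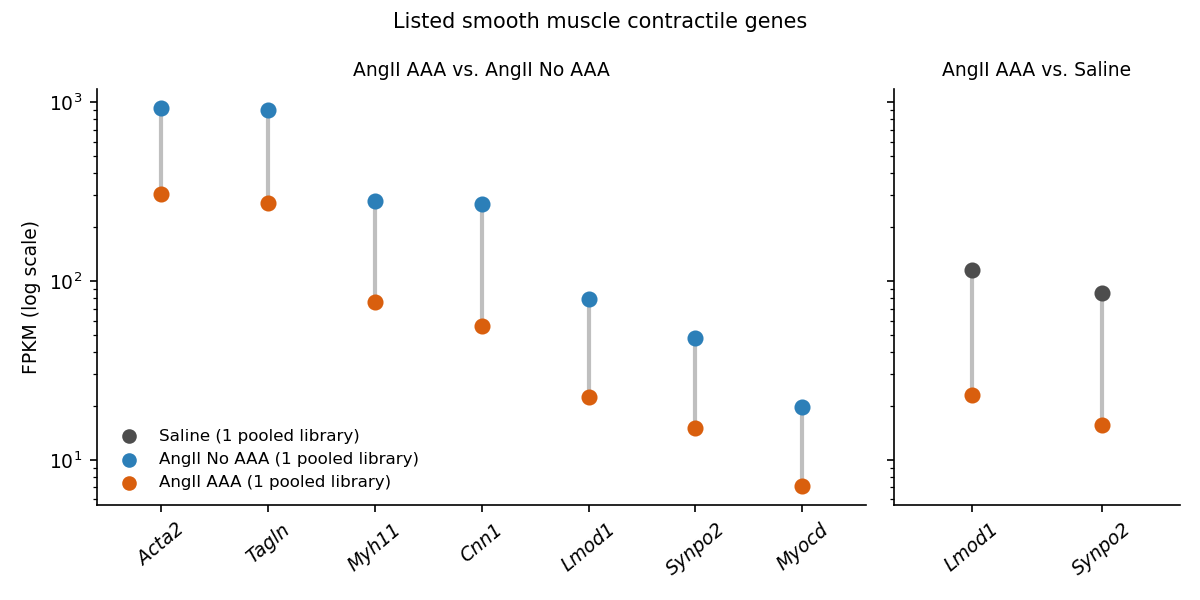
FPKM (log axis) of each contractile gene of the rule that was listed, by comparison; each point is 1 pooled library and the grey bar joins the 2 libraries of an entry, and the 2 comparisons were normalised separately by the authors. All 7 genes were lower in AngII AAA than in AngII No AAA, from 926 to 304 FPKM for Acta2 down to 19.7 to 7.10 FPKM for Myocd, and Lmod1 and Synpo2 were lower in AngII AAA than in Saline.

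The thin filament gave the most abundant transcripts. Acta2, which encodes the actin of vascular smooth muscle, was at 926 FPKM in AngII No AAA and 304 FPKM in AngII AAA, 3.04-fold lower (log2 fold change -1.61). Tagln encodes transgelin, a small protein that binds actin and is related to calponin. It was at 904 FPKM and 271 FPKM, 3.34-fold lower (-1.74). Both genes were near one another in level in either library, and were at ranks 3 and 4 by AngII No AAA level among the 126 lower entries. The entry named Tagln spans 72368 bases in the authors' coordinates, whereas the RefSeq gene spans 6431 bases, so the entry runs over neighbouring genes. Whether their reads are part of its value was not tested.

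Cnn1 showed the largest fold difference of the members. Calponin 1 binds actin filaments and slows the myosin ATPase, and its transcript is among the most specific for mature smooth muscle. Cnn1 was at 269.7 FPKM in AngII No AAA and 56.2 FPKM in AngII AAA, so that 20.8% of the AngII No AAA level was left (4.80-fold lower, log2 fold change -2.26). By size of the fall it was at rank 27 of 126, with entries at 0 in AngII AAA ranked first. The entry covered 9969 bases on chromosome 9 (21903696 to 21913665 in the authors' mm9 coordinates) and matched the 10001 bases of the RefSeq gene. Cnn1 was not listed in AngII AAA vs. Saline or in AngII No AAA vs. Saline, so its Saline level is not known here.

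Because FPKM is a share of each library, the members were also set against Acta2 within the same library. Per 100 FPKM of Acta2, Cnn1 was at 29.1 in AngII No AAA and 18.5 in AngII AAA, a log2 change of -0.66. Myh11 was at 30.1 and 25.2 per 100 FPKM of Acta2, and Lmod1 at 8.58 and 7.35, which gave -0.26 and -0.22. Tagln (97.6 and 89.0) and Synpo2 (5.19 and 4.97) gave -0.13 and -0.06. Myocd was the only listed member whose ratio was higher in AngII AAA, at 2.13 and 2.33 per 100 FPKM of Acta2 (0.13). These ratios restate the fold changes relative to that of Acta2, so they keep the order of the fold changes.

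Myosin and the proteins that build the filaments were lower by sizes between those of Acta2 and Cnn1. Myh11, the heavy chain of smooth muscle myosin, was at 279 FPKM in AngII No AAA and 76.6 FPKM in AngII AAA, 3.64-fold lower (log2 fold change -1.86). Lmod1 encodes leiomodin 1, which starts new actin filaments in smooth muscle. It was at 79.4 FPKM and 22.4 FPKM, 3.55-fold lower (-1.83).

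Synpo2 encodes a protein, also called myopodin, that links actin filaments to alpha-actinin and filamin at dense bodies and, in striated muscle, at the Z-disc. Synpo2 was at 48.0 FPKM in AngII No AAA and 15.1 FPKM in AngII AAA, 3.17-fold lower (log2 fold change -1.67), at rank 71 of the 126 lower entries. In the separate list for AngII AAA vs. Saline it was at 85.6 FPKM in Saline and 15.6 FPKM in AngII AAA, 5.48-fold lower (-2.45), at rank 34 of 110. Of the Saline level, 18.3% was left in AngII AAA. The entry covered 159631 bases on chromosome 3 (122779436 to 122939067 in the authors' mm9 coordinates), close to the 159650 bases of the RefSeq gene.

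Myocd was the lowest of the listed members in both libraries. Myocardin, its product, is the coactivator that drives many of the other members. Myocd was at 19.7 FPKM in AngII No AAA and 7.10 FPKM in AngII AAA, 2.78-fold lower (-1.47), the smallest fold difference of the 7. The order of the members by level was the same in AngII No AAA and AngII AAA, from Acta2 through Tagln, Myh11, Cnn1, Lmod1, and Synpo2 to Myocd. Myh11 and Cnn1 were next to each other in this order, at 279 and 269.7 FPKM in AngII No AAA, but were at 76.6 and 56.2 FPKM in AngII AAA.

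Only Lmod1 and Synpo2 of the 10 genes were listed in AngII AAA vs. Saline, both over 2-fold lower in AngII AAA. Of the 715 entries in that list, 15.4% were over 2-fold lower in AngII AAA and 84.6% over 2-fold higher. Lmod1 was at 115 FPKM in Saline and 23.1 FPKM in AngII AAA, 4.99-fold lower (log2 fold change -2.32). The median of both genes was -2.39, beside -2.06 for the lower entries with a value above 0 in both libraries. The smallest fall listed in this comparison was 2.96-fold, against 2.32-fold in AngII AAA vs. AngII No AAA. None of the 10 genes was listed in AngII No AAA vs. Saline, in which 32.6% of 564 entries were over 2-fold lower in AngII No AAA and 61% over 2-fold higher. The smallest fall listed there was 1.91-fold. The comparisons share libraries, so they are not independent of each other.

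**Figure D2:**
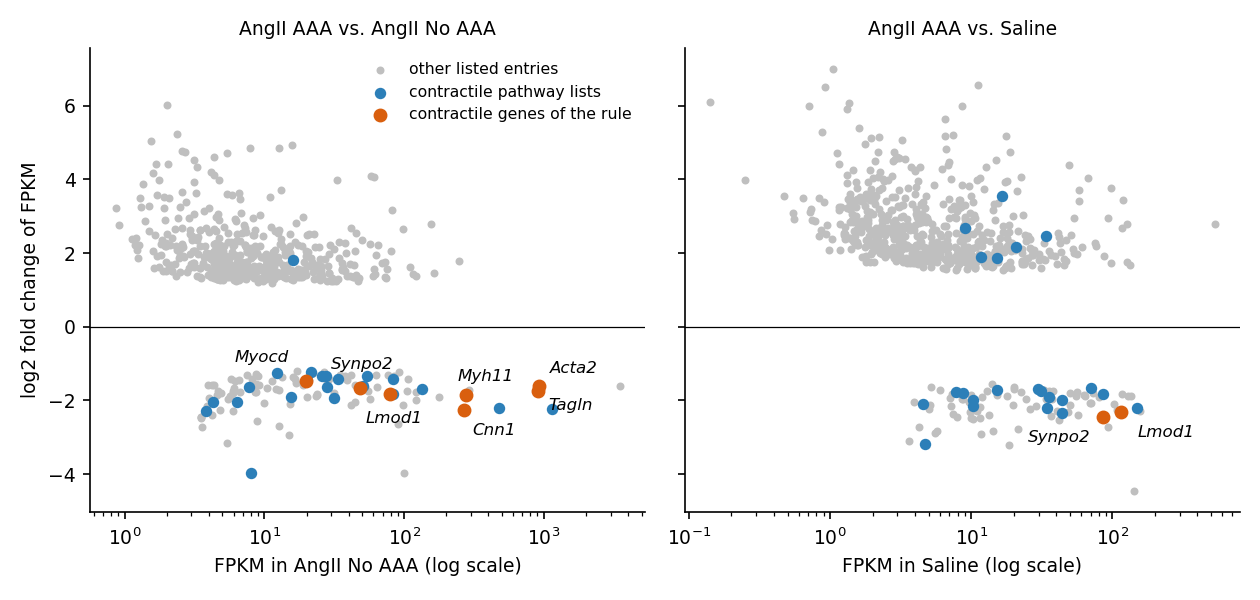
Log2 fold change of FPKM against the FPKM of the comparison library (log axis) for every entry of the 2 AngII AAA lists with a value above 0 in both libraries; orange points are the contractile genes of the rule, blue points the other contractile pathway lists, and grey points all other entries. The 7 members in the left panel lie between -2.26 and -1.47 and reach 926 FPKM, and no point lies near 0 because small changes were not listed.

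For the genes in more than 1 list, the 3 libraries could be set on a common scale, since each library's values in 1 list were a fixed multiple of those in another. This multiple was, for the AngII AAA library, 0.968 over 385 shared entries, for AngII No AAA 0.914 over 102, and for Saline 0.915 over 227. In the units of the AngII AAA vs. Saline list, Synpo2 was at 85.6 FPKM in Saline, 49.6 FPKM in AngII No AAA, and 15.6 FPKM in AngII AAA. The AngII No AAA library was thus between the others, with 57.9% of the Saline level (log2 ratio -0.79). Lmod1 showed the same order, at 115, 82.1, and 23.1 FPKM, with 71.1% of the Saline level in AngII No AAA (-0.49). Neither difference between AngII No AAA and Saline is in the list for that comparison, and both are smaller than the smallest fall listed there. The AngII No AAA levels could be reached by either of 2 routes that differed by 3.20%, which is small beside both ratios.

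The same order, Saline above AngII No AAA above AngII AAA, held for 11 of the 13 genes of the contractile lists, members included, that were listed in both AngII AAA comparisons. Being listed in both comparisons requires AngII AAA to stand apart, which leaves the order of Saline and AngII No AAA. That order was not fully free to vary either. The smallest listed fall was 2.96-fold against Saline but 2.32-fold against AngII No AAA, which favours Saline above AngII No AAA. Of all 386 entries listed in both comparisons, 41 were lower in AngII AAA in both. The share of all entries with the same order was not computed. Entries outside the contractile lists showed it too, so the order is not particular to these lists. Sost, for example, was at 143 FPKM in Saline and 99.0 FPKM in AngII No AAA. In AngII AAA it was at 6.27 to 6.48 FPKM, each value as its list gives it. Among the 13 genes, Itga8 was nearest to Synpo2 in its AngII No AAA level as a share of Saline, at 58.0%. Itga8, the alpha 8 integrin chain that smooth muscle uses to hold its matrix, was at 149 FPKM in Saline. It was at 86.1 FPKM in AngII No AAA and 32.2 FPKM in AngII AAA. Kcnmb1 and Ccdc141 were at 93.1% and 96.5% of the Saline level in AngII No AAA and at 30.0% and 23.2% in AngII AAA. By these values, Kcnmb1 and Ccdc141 were close in Saline and AngII No AAA and low in AngII AAA alone. The Kcnmb1 entry runs over other genes, however, and Ccdc141 was low throughout, at 4.55, 4.39, and 1.06 FPKM in Saline, AngII No AAA, and AngII AAA.

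**Figure D3:**
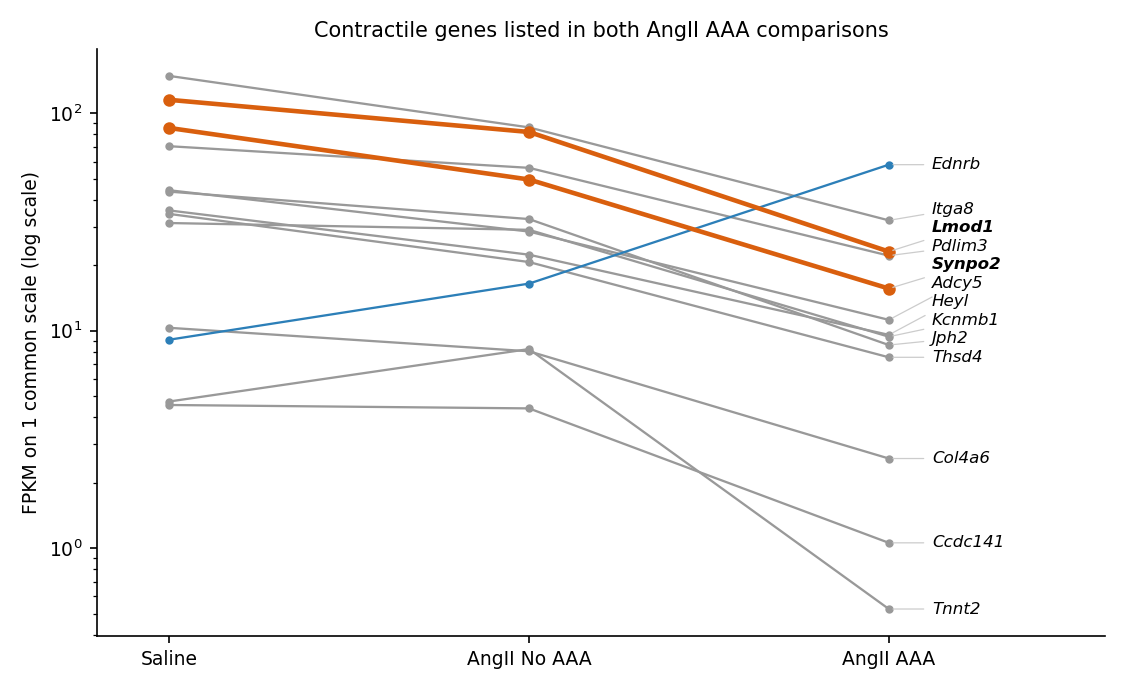
FPKM (log axis) in the 3 libraries, in the units of the AngII AAA vs. Saline list, for the 13 genes of the contractile lists that were listed in both AngII AAA comparisons; each line is 1 gene and each point 1 pooled library, with the members Lmod1 and Synpo2 in orange and Ednrb, the only gene highest in AngII AAA, in blue. Synpo2 went from 85.6 to 49.6 to 15.6 FPKM.

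The wider contractile pathway was described by 7 lists with 212 genes beside the 10 members. In AngII AAA vs. AngII No AAA, 22 of these genes were listed, 21 over 2-fold lower and 1 over 2-fold higher in AngII AAA, with a median log2 fold change of -1.64. The share of listed genes that were lower was 95.5%, beside 21% for all entries. The lists were chosen with earlier results of these data known. They hold genes that the paper reports as lower in this comparison, such as Eln, Mfap4, and Tnnt2. The share is therefore a description and not independent support. Without the matrix list, 12 of 13 were lower. Being listed is no sign that a gene is expressed only by smooth muscle, and most of the 212 genes were not listed.

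In the list of 24 myosin and thin filament genes, 1 was listed in AngII AAA vs. AngII No AAA and it was not a smooth muscle isoform. Tnnt2, the troponin T of heart muscle, was at 7.97 FPKM in AngII No AAA and 0.508 FPKM in AngII AAA (log2 fold change -3.97), and at 4.73 FPKM in Saline in the other list. Tpm4, a tropomyosin found in many cell types, went the other way. It was at 33.8 FPKM in Saline and 186 FPKM in AngII AAA (2.46), and at 36.9 FPKM in Saline and 97.9 FPKM in AngII No AAA (1.41). On the common scale, Tpm4 was at 33.8, 89.6, and 186 FPKM in Saline, AngII No AAA, and AngII AAA, the reverse of the order of Synpo2 and Lmod1.

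Of 18 genes for myosin light chain phosphorylation, 1 was listed, and only in AngII AAA vs. Saline. Ppp1r14a encodes CPI-17, which inhibits the myosin phosphatase and so favours contraction. It was at 85.5 FPKM in Saline and 24.1 FPKM in AngII AAA (log2 fold change -1.83).

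Genes for calcium, channels, and cyclic nucleotides were listed only where they were lower in AngII AAA. Kcnmb1, the beta 1 subunit of the large-conductance potassium channel of smooth muscle, was at 28.2 FPKM in AngII No AAA and 9.08 FPKM in AngII AAA (-1.63). It was at 31.3 FPKM in Saline and 9.39 FPKM in AngII AAA (-1.74). Adcy5, an adenylyl cyclase that makes cyclic AMP, was at 27.7 FPKM in AngII No AAA and 10.9 FPKM in AngII AAA (-1.35), and at 44.3 FPKM in Saline and 11.2 FPKM in AngII AAA (-1.98). Mrvi1, which encodes a substrate of the cyclic GMP kinase that restrains calcium release, was at 29.6 FPKM in Saline and 9.15 FPKM in AngII AAA (-1.69). The entry named Kcnmb1 spans 363853 bases against 10687 for the RefSeq gene, and so runs over other genes. These were 2 of the 28 genes of the list in the first comparison and 3 in the second. Of all entries, 21% were over 2-fold lower in the first and 15.4% in the second.

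Receptors were mixed in direction. P2rx1, an ATP-gated channel that depolarises arterial smooth muscle, was at 15.4 FPKM in AngII No AAA and 4.16 FPKM in AngII AAA (log2 fold change -1.89). Adra1d, an alpha 1 adrenergic receptor, was at 10.2 FPKM in Saline and 2.31 FPKM in AngII AAA (-2.14). Ednrb, the endothelin B receptor, which is known in both endothelium and smooth muscle, was higher in AngII AAA, at 56.2 FPKM against 15.9 FPKM in AngII No AAA (1.82) and at 58.0 FPKM against 9.09 FPKM in Saline (2.67). Rgs2, a brake on the signals of receptors such as that of AngII, was at 11.8 FPKM in Saline and 43.8 FPKM in AngII AAA (1.90). Each comparison with AngII AAA thus listed receptor genes in both directions, and AngII No AAA vs. Saline listed none of the 26.

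The dense body, costamere, and intermediate filament list was the one in which Synpo2 has its closest partners. Of its 66 genes, 7 were listed in AngII AAA vs. AngII No AAA, all over 2-fold lower (median -1.42, from -2.05 to -1.34). Of all entries of that comparison, 21% were over 2-fold lower. The 4 largest were Ccdc141, Jph2, Dmpk, and Itga8. Jph2, which holds the sarcoplasmic reticulum to the plasma membrane, was at 31.6 FPKM in AngII No AAA and 8.32 FPKM in AngII AAA (-1.92). Dmpk, the kinase gene of myotonic dystrophy, was at 135 FPKM and 41.7 FPKM (-1.70). Itga8 was at 83.4 FPKM and 31.1 FPKM (-1.42), and Ccdc141 was at 4.25 FPKM and 1.02 FPKM (-2.05).

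In AngII AAA vs. Saline, 6 genes of this list were listed, again all over 2-fold lower in AngII AAA (median -1.94), beside 15.4% of all entries. Jph2 was at 43.6 FPKM in Saline and 8.59 FPKM in AngII AAA (-2.34), and Itga8 at 149 FPKM and 32.2 FPKM (-2.21). Pdlim3, a PDZ and LIM protein that binds alpha-actinin, was at 70.6 FPKM and 22.1 FPKM (-1.67), and Ccdc141 at 4.55 FPKM and 1.06 FPKM (-2.11). Myot, which encodes a Z-disc protein of striated muscle, had a different pattern. It was at 15.2 FPKM in Saline and 4.62 FPKM in AngII AAA (-1.72).

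Myot was also listed as lower in AngII No AAA than in Saline, unlike any member. Myot was at 16.7 FPKM in Saline and 2.46 FPKM in AngII No AAA (log2 fold change -2.76), and Xirp2, which encodes a protein of striated muscle, at 12.7 FPKM and 3.83 FPKM (-1.73). Of the 10 pathway genes that this comparison listed, 3 (30.0%) were over 2-fold lower, these among them. That share was near the 32.6% of all entries that were over 2-fold lower in AngII No AAA. Itga5, the alpha 5 chain of the fibronectin receptor, was higher in AngII No AAA, at 58.8 FPKM against 22.7 FPKM (1.37). No gene of the phosphorylation, channel, receptor, or transcription lists was listed in AngII No AAA vs. Saline.

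Among 27 transcriptional regulators, a list that held Srf, the myocardin-related factors, Klf4, and the Mef2 genes, only Heyl was listed. Heyl, a target of Notch signalling in arterial smooth muscle, was at 21.7 FPKM in AngII No AAA and 9.27 FPKM in AngII AAA (-1.22). Against Saline it was at 35.8 FPKM and 9.57 FPKM (-1.90). On the common scale its AngII No AAA level was 62.6% of Saline, beside 57.9% for Synpo2.

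Of 23 genes for the elastic and basement membrane matrix that smooth muscle makes, 9 were listed in AngII AAA vs. AngII No AAA. All 9 were over 2-fold lower in AngII AAA (median -1.82), beside 21% of all entries. The list holds genes that the paper reports as lower in this comparison, so the count is only a description. Eln, which encodes the elastin precursor, was at 1144 FPKM in AngII No AAA and 242 FPKM in AngII AAA (-2.24), and Mfap4, a protein of elastic microfibrils, at 476 FPKM and 104 FPKM (-2.20). Col4a3, a basement membrane collagen chain, was at 3.80 FPKM and 0.786 FPKM (-2.27), and Adamtsl2, a protein that binds fibrillin, at 6.39 FPKM and 1.56 FPKM (-2.03).

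In AngII No AAA vs. Saline, 5 of the 23 matrix genes were listed and all 5 were over 2-fold higher in AngII No AAA (median 1.93), beside 61% of all entries. The other 18 were not listed, and neither was any of the 10 members. Lox, which cross-links elastin and collagen, was at 17.9 FPKM in Saline and 119.7 FPKM in AngII No AAA (2.74), and Fbn1, the main microfibril protein, at 22.5 FPKM and 85.6 FPKM (1.93). Mfap5, a microfibril protein that is also on the fibroblast list, was at 16.6 FPKM and 74.2 FPKM (2.16). Mfap4 was at 172 FPKM and 521 FPKM (1.60), and Adamtsl2 at 3.09 FPKM and 6.99 FPKM (1.18). On the common scale, Mfap4 was at 158, 492, and 107 FPKM in Saline, AngII No AAA, and AngII AAA, a peak in AngII No AAA that Synpo2 and Lmod1 did not show.

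In AngII AAA vs. Saline, 6 genes of the matrix list were listed, 3 in each direction. Lox was at 193 FPKM in AngII AAA against 16.4 FPKM in Saline (3.56), Fbn1 at 92.6 FPKM against 20.6 FPKM (2.17), and Mfap5 at 55.1 FPKM against 15.2 FPKM (1.86). Thsd4, which promotes fibrillin microfibrils, was at 7.55 FPKM against 34.5 FPKM in Saline (-2.19). Col4a6, a basement membrane collagen chain, was at 2.58 FPKM against 10.3 FPKM (-2.00), and Lamc3, a laminin chain, at 2.50 FPKM against 8.69 FPKM (-1.80). Over all 7 lists, 22 genes were listed in this comparison, 16 over 2-fold lower and 6 over 2-fold higher. The share that was lower was 72.7%, beside 15.4% for all entries. The lists were chosen with earlier results of these data known, so this share is likewise only a description.

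**Figure D4:**
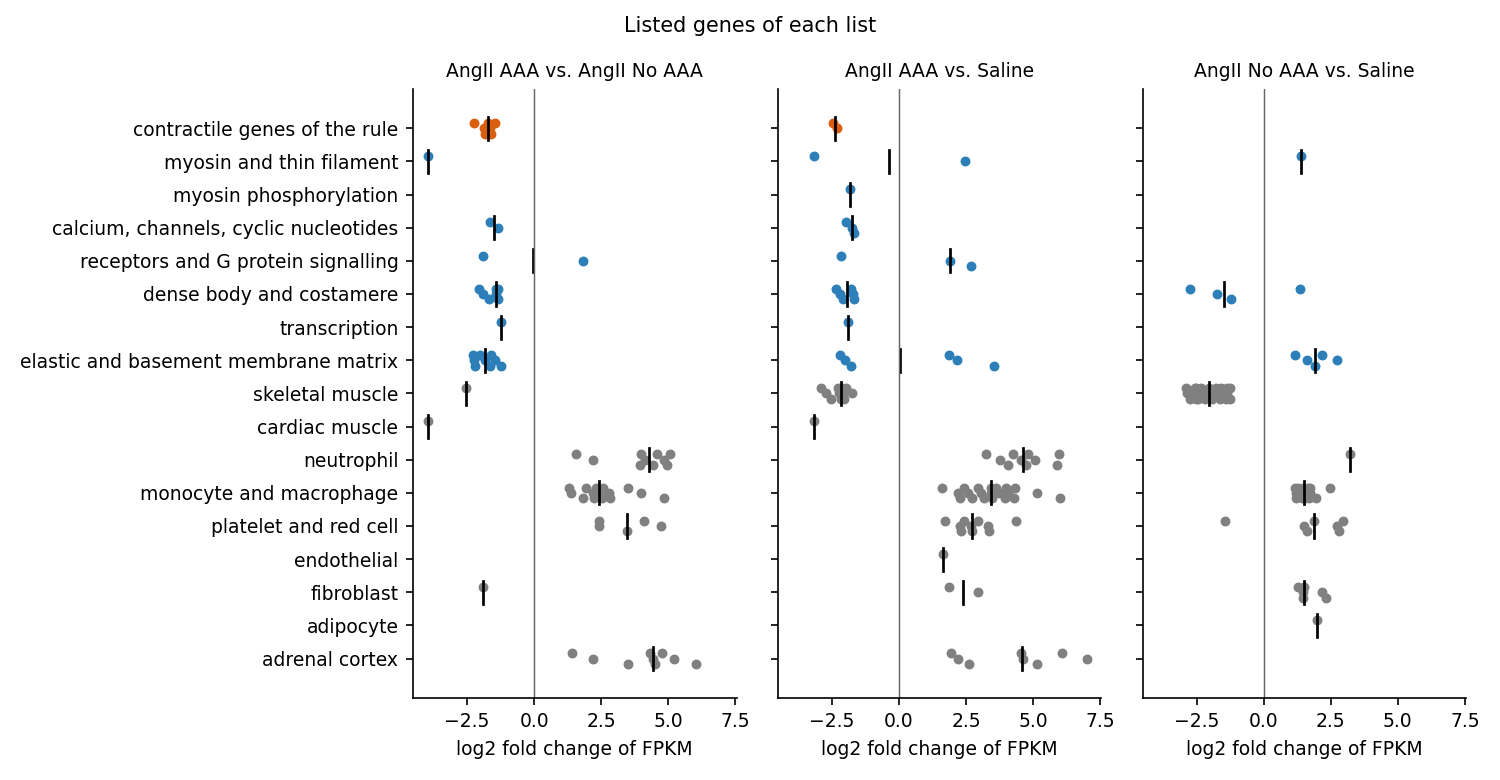
Log2 fold change of FPKM for every listed gene of each list with a value above 0 in both libraries, in the 3 comparisons; each point is 1 gene and the black bar is the median of the list, with the contractile genes of the rule in orange, the 7 pathway lists in blue, and the 9 cell type lists in grey. The members lie left of 0 in both AngII AAA comparisons and have no point in AngII No AAA vs. Saline, where 25 skeletal muscle genes do.

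The entries whose fold changes were nearest to those of Cnn1 and Synpo2 were found by distance among entries with at least 1 FPKM in both libraries. Cnn1 was listed in 1 comparison, so its neighbours among 571 entries share only the size of that fall. They were Eln, Pnoc (5.91 FPKM in AngII No AAA and 1.21 FPKM in AngII AAA), Mfap4, Clec3b (97.7 and 22.4 FPKM), and Fmod (41.7 and 9.66 FPKM), with log2 fold changes from -2.29 to -2.11. Synpo2 was compared over both AngII AAA comparisons, among 371 other entries listed in both. Its nearest entries were 6330403A02Rik, Igsf9, Wscd2, Cys1, and Lmod1. Of these, only Lmod1 is a member, at a distance of 0.21 on the log2 scale. Cys1 was at 37.0 FPKM in Saline, 18.8 FPKM in AngII No AAA, and 6.62 to 6.84 FPKM in AngII AAA, each as its list gives it. The other 3 had at most 13.4 FPKM in any library, well under the levels of Synpo2.

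These libraries are whole tissue, so fewer smooth muscle cells and less contractile RNA per cell cannot be told apart. Markers of other cells moved between the same libraries as the members. Of all entries in AngII AAA vs. AngII No AAA, 79% were over 2-fold higher in AngII AAA. A listed gene of any kind was thus more often higher than lower. In AngII AAA vs. AngII No AAA, 11 of 18 neutrophil markers were listed and all 11 were higher in AngII AAA, with their summed FPKM at 112 and 1461 and 1 of them, Stfa2l1, at 0 in AngII No AAA. Of 23 monocyte and macrophage markers, 15 were listed and all were higher, with sums of 402 and 2790 FPKM and none at 0. Lyz2 alone was at 156 and 1073 FPKM, above the level of Acta2 in AngII AAA. Of 14 platelet and red cell markers, 5 were listed and higher, all of them platelet genes, with sums of 75.0 and 1228 FPKM. Of 13 adrenal cortex markers, 9 were listed and higher, with sums of 41.1 and 552 FPKM, led by Hsd3b1 at 1.99 and 130 FPKM. Of 15 fibroblast markers only Pi16 was listed, and it was lower in AngII AAA, at 177 FPKM in AngII No AAA and 46.9 FPKM in AngII AAA (-1.92). The part of these cells in the lower FPKM of the members was not tested.

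Against Saline the same lists moved in AngII AAA beside Synpo2 and Lmod1. Of all entries of that comparison, 84.6% were over 2-fold higher in AngII AAA. For neutrophils, 11 of 18 markers were listed and higher, with sums of 64.9 FPKM in Saline, where Stfa2l1 was at 0, and 1524 FPKM in AngII AAA. For monocytes and macrophages, 21 of 23 were listed and higher, with sums of 315 and 3794 FPKM. Platelet and red cell markers (10 of 14, sums of 309 and 2644 FPKM) and adrenal cortex markers (8 of 13, sums of 28.8 and 518 FPKM) were higher as well. Of the 15 endothelial markers only Emcn was listed, at 14.1 FPKM in Saline and 43.6 FPKM in AngII AAA. Of the 15 fibroblast markers, Col3a1 and Mfap5 were listed and higher, with sums of 108 and 772 FPKM.

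Markers of skeletal muscle were high in the Saline library, and Synpo2 is known to be expressed in striated muscle as well. In AngII AAA vs. Saline, 11 of 34 skeletal muscle markers were listed and all were lower in AngII AAA, with sums of 567 and 120 FPKM. In AngII No AAA vs. Saline, 25 of 34 were listed and all were lower in AngII No AAA, with sums of 1522 and 317 FPKM, led by Acta1 at 247 and 43.8 FPKM. Of all entries, 15.4% were over 2-fold lower in AngII AAA than in Saline, and 32.6% over 2-fold lower in AngII No AAA than in Saline. In AngII AAA vs. AngII No AAA only Casq1 was listed, at 8.84 FPKM in AngII No AAA and 1.50 FPKM in AngII AAA. The median of the 25 markers was -2.03 in AngII No AAA vs. Saline, and on the common scale Synpo2 was also lower in AngII No AAA, at 57.9% of its Saline level. The part of striated muscle in the Saline level of Synpo2 was not tested.

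In AngII No AAA vs. Saline, where no member was listed, inflammatory and fibroblast markers were also higher in AngII No AAA. Of all entries there, 61% were over 2-fold higher in AngII No AAA. Of 23 monocyte and macrophage markers, 16 were listed and higher, with sums of 312 FPKM in Saline and 857 FPKM in AngII No AAA, and of 18 neutrophil markers only Lcn2, at 7.28 and 66.9 FPKM. Of 15 fibroblast markers, 6 were listed and higher, with sums of 347 and 1181 FPKM. Of 14 platelet and red cell markers, 6 entries were higher, all of red cell genes, and 1 was lower, the platelet gene Ppbp (-1.44). Retn was the only listed one of 12 adipocyte markers, at 50.0 and 197.7 FPKM. Among 13 heart muscle markers only Tnnt2 was listed, and in the AngII AAA comparisons only.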

How the data were processed

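Total RNA of suprarenal aortas was pooled by cohort into 3 libraries and sequenced. Per the series description, a library held 35000000 to 43000000 reads. The submitters' processing notes name FastQC, HISAT2, Cufflinks, and Cuffdiff and build mm9, and versions are not given in the sources used here. The authors deposited FPKM values of the 2 libraries of each comparison, from a separate Cuffdiff run per comparison, for entries with an unadjusted p-value under 0.05. Their columns of fold changes, test scores, p-values, and adjusted p-values were not used. Counts were not analysed here, so the precision of a single FPKM value is unknown.

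Log2 fold changes were recomputed from FPKM with no pseudocount, and a call was a listed entry over 2-fold lower or higher. No test was run, because each cohort had 1 library. Libraries were set on 1 scale by the median FPKM ratio over shared entries. Genes were matched by symbol. Only 145 of 1164 entries (12.5%) overlapped the RefSeq gene of their symbol in GRCm38.p6, so positions of entries are given in mm9 and promoter sequences in GRCm38.p6. The listed genes of a pathway list were named, except an item that is not reported here, or the 4 largest changes where it had over 6; for cell type lists, the genes with the highest FPKM; and for likeness the 5 nearest entries. The members and all lists were chosen with earlier results of these data known. The calculations were tested on simulated data. Alternatives were a pseudocount of 1, a floor of 1 FPKM on the higher value, a fold change over 4, entries for a single gene, and other scalings. Python 3.11.15, pandas 2.3.3, and numpy 2.4.6 were used.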

Additional observations from a re-analysis of the deposited data

How the results depend on the processing

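Of 30 recomputed values, 11 moved and none changed direction. Many of them could not have done so, and this is no sign of robustness. A pseudocount keeps the sign of a fold change, a common scale leaves it as it was within a list, and a count of genes has no direction. With a pseudocount of 1, the log2 fold change was -2.24 for Cnn1, and for Synpo2 it was -1.60 in AngII AAA vs. AngII No AAA and -2.38 in AngII AAA vs. Saline, where the median of the listed members was -2.33. With a fold change over 4, the pathway genes lower in AngII AAA were 6 of 21 against AngII No AAA and 6 of 16 against Saline, and those lower in AngII No AAA than in Saline were 1 of 3. The log2 ratio of AngII No AAA to Saline was -0.83 for Synpo2 and -0.54 for Lmod1, both without a common scale and with AngII No AAA set through the Saline list, the latter chosen after seeing the data. No paired analysis was possible because each cohort had 1 library. The same limit leaves the spread between animals unmeasured. Lists that hold only entries past a p-value threshold leave the levels of unlisted genes unknown.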

Other observations

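Beside the lists above, 41 of the 386 entries listed in both AngII AAA comparisons were lower in AngII AAA in both, and 344 were higher in both. The entries that were lower include Synpo2 and Lmod1. Mir143hg and Mylk4 are among the others and were chosen after their values were seen. Mir143hg, a long transcript that hosts the microRNAs miR-143 and miR-145 of smooth muscle, was at 122 FPKM in AngII No AAA and 35.5 FPKM in AngII AAA (log2 fold change -1.78), and at 136 FPKM in Saline and 36.7 FPKM in AngII AAA (-1.89). The mature microRNAs were not measured by this entry. Mylk4, a member of the myosin light chain kinase family, was at 20.1 FPKM in AngII No AAA and 5.35 FPKM in AngII AAA (-1.91), and at 26.2 FPKM in Saline and 5.52 FPKM in AngII AAA (-2.24).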
